A study of Canis lupus familiaris with 77 samples.

Results

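MicroRNAs miR-448 and miR-1264 are 2 of the 650 miRNAs detected in a tissue atlas of the beagle dog. They were chosen by name, with their brain pattern in these data already known, so their levels are given as a description with no test. The row of cfa-miR-448 also stands for the human miR-448 and the rat miR-448-3p, and is therefore the 3p arm of the hairpin. The row of hsa-miR-1264 carries the human name alone, and its reads were counted at the place in the dog genome to which the human annotation was carried over.

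An miRNA is cut from a hairpin in a longer transcript, often an intron of a protein-coding gene, and guides the silencing machinery to mRNAs that pair with its seed. HTR2C, on the X chromosome, encodes the serotonin 2C receptor, a G protein-coupled receptor of neurons that is also abundant on the epithelium of the choroid plexus and is known for its role in appetite and mood. In man, its long introns hold a group of hairpins, miR-764, miR-1912, miR-1264, miR-1298, miR-1911 and miR-448, which can be transcribed with the host gene. In RefSeq's annotation of the dog assembly UU_Cfam_GSD_1.0, which is not the build of these data, MIR448 lay within HTR2C on chromosome X, and MIR764 lay outside HTR2C as annotated there, with 0 genes between them. That annotation as given here has no entry named MIR1264, MIR1298, MIR1911 or MIR1912, so their place at the dog locus rests here on the human gene order.

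Small RNA was sequenced from 16 tissues of untreated, young male Marshall Beagle dogs that had been perfused with saline before the organs were taken. The 76 libraries used here comprised 5 brain libraries and 71 from the other 15 tissues. Colon had 4 samples, sciatic nerve 2 and each other tissue 5. The sources do not say which region of the brain was taken, the labels do not give a dog number, and the study describes the sciatic nerve samples in conflicting ways, as a divided pool and as single samples beside a pool. The tissues were taken from the same 5 dogs, so libraries of different tissues share animals, while the tests below treat all 76 as independent and measure only the spread between these samples. The unit, RPM, is the reads of an miRNA per 1000000 reads on miRNAs in that library.

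Depth ranged from 157871 to 7896424 reads on miRNAs per library, with 785857 to 3217077 in brain. At these depths a count of 0 allowed a level of up to 0.380 RPM in the deepest and 19.0 RPM in the shallowest library (3 reads, counting error only). The brain label was borne out by the neuronal markers, since all 19 measured rows of miR-124, miR-9, miR-128, miR-137, miR-153, miR-132, miR-212 and miR-138 were tissue enriched (TE) in brain. An miRNA was TE where its tissue mean exceeded the mean of the remaining samples by a factor above 5 and a two-sided exact rank-sum test gave an adjusted p under 0.05 over the 650 miRNAs. In brain, 189 of 650 miRNAs (29.1%) were TE, and 84 of 650 (12.9%) were higher in every brain library than in every other library.

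A pair of libraries stood apart. Brain 3 had the lowest mean rank correlation with the other brain libraries, 0.922 against 0.947 to 0.951, and 102 of the 189 brain TE miRNAs (54.0%) were lowest in it. Testis 3 was the deepest testis library (2027090 reads, against 219585 to 287166 in the others). The gonadal miR-202 stood at 0.493 RPM there and at 241 to 5345 RPM in the other 4, which goes against its label. Levels and pooled ratios that either library moved by more than 1.5 times are given below with and without it. Ratios to the mean of all other samples are given with all libraries only.

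miR-448 was read in every brain library. The 5 brain libraries held 16, 79, 24, 42 and 45 reads of it, in the order brain 1 to brain 5. These correspond to 20.4, 24.6, 11.8, 28.5 and 19.5 RPM. Brain 3 was the lowest and brain 4 the highest library, and the 95% Wilson intervals of these 2, 7.92 to 17.5 and 21.1 to 38.5 RPM, did not overlap. The brain mean was 20.9 ± 6.24 RPM (SD, n = 5), a coefficient of variation of 29.8%, and 23.2 ± 4.12 RPM without brain 3. By its brain median of 20.4 RPM it ranked 267 of the 650 miRNAs, so it is a minor miRNA of this tissue.

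Outside brain, miR-448 had 1 read in 71 libraries. That read lay in testis 3, at 0.493 RPM, and the other 14 tissues held none. Pooled over libraries, brain gave 206 reads in 9816608, or 20.98 RPM, and the other tissues 1 read in 116744657, or 0.00857 RPM. The ratio of these pooled levels was 2450, with an exact 95% interval of 435 to 97228 that covers counting error only, and it was 2731 without brain 3. Without testis 3 no other library held a read, and the pooled brain level was at least 802-fold higher than a 3-read limit over the other 70 libraries together. Of all reads of miR-448, 99.5% came from brain. Depth seldom limited this comparison, since 63 of the 71 other libraries were deep enough to show 3 reads at the lowest brain level and all 71 at the brain median. Had the other libraries held miR-448 at the lowest brain level, 1376 reads would have been counted in them.

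miR-1264 was also read in every brain library, with a wider spread. Its 18, 30, 13, 58 and 35 reads correspond to 22.9, 9.33, 6.38, 39.3 and 15.2 RPM in brain 1 to brain 5. Brain 4 was again the highest, with an interval of 30.4 to 50.8 RPM, and brain 3 again the lowest, with 3.73 to 10.9 RPM. The interval of brain 2, 6.53 to 13.3 RPM, overlapped that of brain 3. The brain mean was 18.6 ± 13.2 RPM (SD, n = 5), a coefficient of variation of 70.7%, or 21.7 ± 13.0 RPM without brain 3. Its brain median of 15.2 RPM ranked 292 of 650.

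Outside brain, miR-1264 had 3 reads, 1 each in lung 5 (0.566 RPM), sciatic nerve 2 (0.859 RPM) and testis 3 (0.493 RPM). The other 12 tissues held none. The pooled levels were 15.7 RPM in brain, from 154 reads, and 0.0257 RPM elsewhere, a ratio of 610 (exact 95% interval 205 to 2993, counting error only), or 705 without brain 3 and 900 without testis 3, where 2 reads were left outside brain. Brain supplied 98.1% of its reads. Of the other libraries, 55 of 71 could show 3 reads at the lowest brain level and 67 of 71 at the brain median.

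The order of the tissues was therefore brain first and then values that could not be told from 0. For miR-448 the highest mean outside brain was 0.0987 RPM, in testis, and for miR-1264 it was 0.429 RPM, in sciatic nerve, each set by 1 read. For a tissue without a read, the pooled depth allowed a level of up to 0.148 RPM in kidney, the most deeply sequenced tissue, to 3.02 RPM in bone marrow, the least. Plasma, where an miRNA released from an organ would be sought, had no read of either miRNA in 5 libraries with 6440642 reads, which allows up to 0.466 RPM. In bulk samples, fewer cells that make an miRNA and less of it per cell cannot be told apart.

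**Figure D1:**
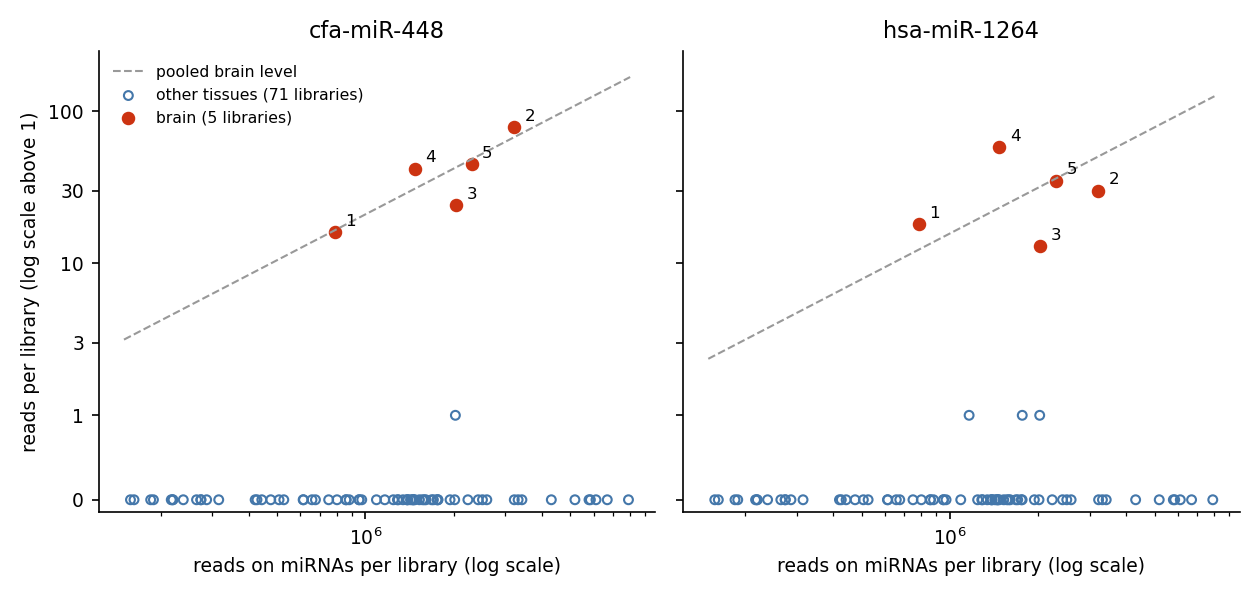
Reads of cfa-miR-448 (left) and hsa-miR-1264 (right) in each library (vertical axis, linear from 0 to 1 and log scale above) against the reads on miRNAs of that library (horizontal axis, log scale). Filled points are the 5 brain libraries, labelled by number, open points the 71 libraries of other tissues, and the dashed line is the pooled brain level; the open points lie at 0 or at 1 read over the whole range of depth, and the brain points between 13 and 79 reads.

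The share of miR-1264 among the reads of both was 52.9%, 27.5%, 35.1%, 58.0% and 43.8% in brain 1 to brain 5, and 42.8% over all 360 reads (95% Wilson interval 37.8% to 47.9%). The interval of brain 2, 20.01% to 36.6%, lay below that of brain 4, 48.2% to 67.2%. The others overlapped one or both of these. These Wilson intervals, and those of single libraries throughout, cover counting error only, with no replicate of a library, so whether the ratio differs between the animals was not tested. How well each miRNA enters a small RNA library differs between miRNAs, so a share of reads is not a share of molecules.

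The other miRNAs of the HTR2C introns were taken from a list of miR-764, miR-1298, miR-1911, miR-1912 and any other arm of miR-448 and miR-1264, of which 5 rows were detected. All 5 were TE in brain, where 29.1% of all miRNAs were, and 4 of 5 were higher in every brain library than in every other library, where 12.9% of all miRNAs were. By DESeq2's Wald test, with brain set against the mean of the other tissues, 1 of the 4 rows that had an adjusted p passed, miR-1298-5p. At the same fold above 5 and adjusted p under 0.05, 125 miRNAs of the atlas passed. How many of all miRNAs had an adjusted p was not counted, so nothing is read from the 1 of 4. The list was chosen with earlier results of these data known, so its calls and p-values are not independent evidence of a brain pattern. None of the 5 was TE in another tissue (in testis 53 of 650 miRNAs, 8.15%, were), but 3 of the 5 had no read outside brain and a fold above 5 against a group that holds brain was hard to reach, so nothing is read from this. miR-1912 and a second arm of miR-1264 were looked for, and no detected row carried their names.

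The other arm of the same hairpin, rno-miR-448-5p, had 2, 11, 3, 37 and 17 reads in brain 1 to brain 5, or 2.54, 3.42, 1.47, 25.1 and 7.39 RPM. It was read in every brain library and in no other, and brain 4 stood far above the rest. Its brain mean was 7.98 ± 9.81 RPM (SD, n = 5), and 3.71 RPM without brain 4. Pooled, it was at least 277-fold higher in brain than a 3-read limit over the other libraries together, and the exact rank-sum test gave an adjusted p of 5.67e-07.

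The 5p arm made up 11.1%, 12.2%, 11.1%, 46.8% and 27.4% of the reads of both arms, and 25.4% over all brain libraries. The interval of brain 4, 36.2% to 57.7%, lay above those of brain 1, brain 2 and brain 3, the highest of which ended at 32.8%. These intervals cover counting error only and rest on as few as 2 reads of the 5p arm, and a difference between libraries was not tested. Brain 4 was at the same time the library in which miR-1264 took its largest share beside miR-448.

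miR-764 had 2 rows, and neither had a read outside brain. rno-miR-764-3p had 5, 23, 2, 21 and 34 reads, or 6.36, 7.15, 0.982, 14.2 and 14.8 RPM, with a mean of 8.70 ± 5.81 RPM (SD, n = 5). It was at least 337-fold higher in brain by the pooled limit, and the exact rank-sum test gave an adjusted p of 5.67e-07. cfa-miR-764, the row of the dog and human annotation, was rarer, with 1, 2, 0, 9 and 13 reads, or 1.27, 0.622, 0, 6.10 and 5.65 RPM. Its pooled level was at least 99.1-fold higher, and the exact rank-sum test gave an adjusted p of 1.74e-05. It was the only one of the 5 rows whose brain values overlapped those of other tissues, through the 0 of brain 3. Over all brain libraries, rno-miR-764-3p supplied 77.3% of the reads of both rows.

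miR-1298-5p was the most abundant row of the locus. Its 193, 351, 4530, 219 and 464 reads correspond to 246, 109, 2225, 148 and 202 RPM in brain 1 to brain 5. Brain 3 alone held 78.7% of its brain reads. The brain mean was 586 ± 918 RPM (SD, n = 5), or 176 ± 59.8 RPM without brain 3. With brain 3 included, its mean was 576 times that of all other samples (1.02 RPM), and the exact rank-sum test gave an adjusted p of 5.67e-07. The pooled ratio was 721 (exact 95% interval 588 to 892, counting error only) and 194 without brain 3. Without testis 3, which held 35 of the 95 reads outside brain, it was 1121.

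Outside brain, miR-1298-5p had the most reads of the 7 rows, 95 in 20 of the 71 libraries and 11 of the 15 tissues. The highest of these was testis 3 with 35 reads, or 17.3 RPM. The other testis libraries had 3.77, 3.65, 13.7 and 0 RPM in testis 1, 2, 4 and 5, from 1, 1, 3 and 0 reads. The testis mean was 7.67 ± 7.39 RPM (SD, n = 5). Against all other samples together testis had an adjusted p of 0.0402 by the exact rank-sum test, but its mean was 0.184 times theirs, brain included, so it was not TE there. Without testis 3 the mean of the other 4 was 5.27 ± 5.86 RPM and the adjusted p 0.103 by the same exact test. The median of brain was 11.7 times the highest other library, and 10.1 times without brain 3.

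miR-1911-5p had 9, 16, 154, 7 and 17 reads in brain 1 to brain 5, or 11.5, 4.97, 75.6, 4.74 and 7.39 RPM. Brain 3 held 75.9% of these reads, and the mean of 20.8 ± 30.7 RPM (SD, n = 5) became 7.14 ± 3.11 RPM without it. Outside brain it had 12 reads in 8 libraries, at most 3 in any. With brain 3 included, its mean was 109 times that of all other samples (0.192 RPM), and the exact rank-sum test gave an adjusted p of 5.67e-07. The brain values did not overlap the others, although the highest of these, testis 4 at 4.55 RPM, came close to brain 4, and with TMM or DESeq2 scaling they overlapped. The pooled ratio was 201 (exact 95% interval 113 to 396, counting error only), 61.3 without brain 3 and 264 without testis 3.

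Few miRNAs of the atlas had so few reads outside brain, a count that a rare miRNA keeps low more easily than an abundant one. At most 3 reads in every other library and at least 10 in a brain library were found for 31 of 650 miRNAs, and 6 of these were among the 7 rows of the locus. No read outside brain with at least 10 in brain was found for 4 miRNAs, of which 3 were rno-miR-448-5p, rno-miR-764-3p and cfa-miR-764. The last of the 4, named here after its values were seen, was rno-miR-3552 with 66 brain reads. miR-448 and miR-1264 were chosen for their brain pattern, and these counts give no test of the locus. By the brain median over the highest other library, miR-448 had 41.3 and miR-1264 17.7. Each of these ratios was set by 1 read, in testis 3 and in sciatic nerve 2. Without testis 3 no other library held a read of miR-448, and its ratio has no finite value. With all libraries, some more abundant miRNAs had a wider gap, such as miR-124, with a brain median of 2971 RPM against at most 8.56 RPM elsewhere. For cfa-miR-219-3p these were 276 and 1.54 RPM. How many miRNAs exceeded miR-448 and miR-1264 by this ratio was not counted.

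**Figure D2:**
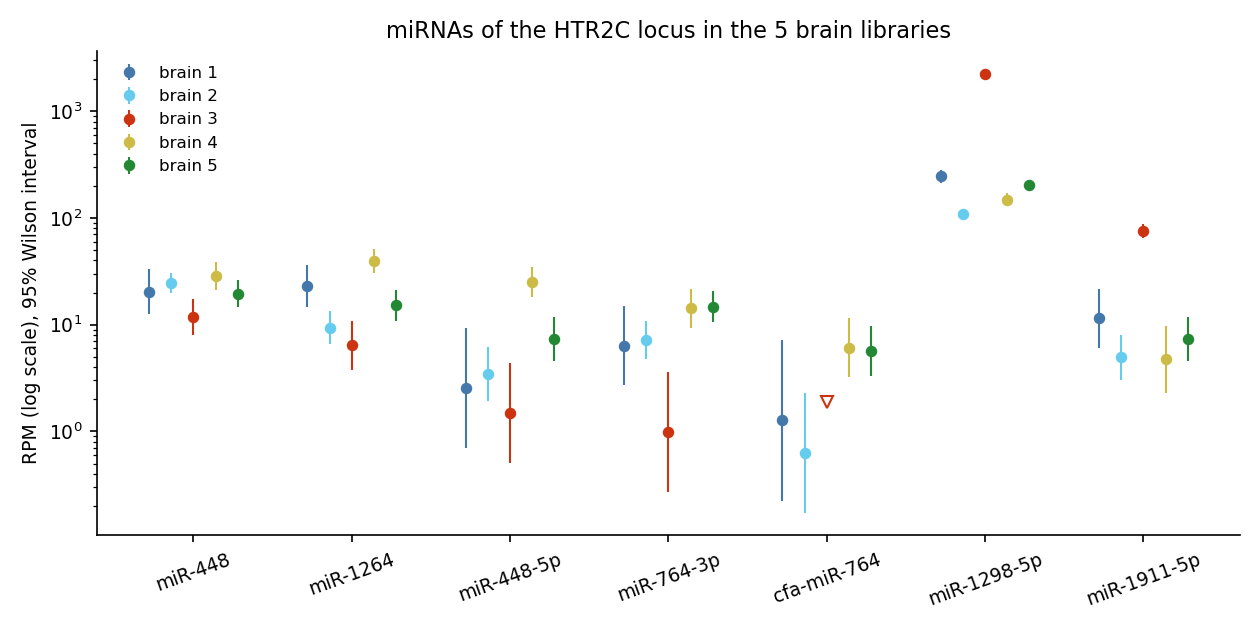
Level of each miRNA of the HTR2C locus in the 5 brain libraries, in RPM on a log scale. Points are single libraries, bars are 95% Wilson intervals of the count, and the open triangle is the upper limit of a count of 0; brain 3 (red) is the lowest library for miR-448, miR-1264, miR-448-5p, miR-764-3p and cfa-miR-764 and the highest for miR-1298-5p and miR-1911-5p.

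In brain 3 the rows of the locus went in different directions. A low level there was common, since 54.0% of the 189 brain TE miRNAs were lowest in brain 3, while 10.6% were highest. Against the median of the other 4 brain libraries, it was 1.91-fold lower for miR-448, 2.98-fold lower for miR-1264, 3.67-fold lower for miR-448-5p and 10.9-fold lower for miR-764-3p, and it had no read of cfa-miR-764. In the same library miR-1298-5p was 12.7 times and miR-1911-5p 12.2 times that median. miR-448 and miR-1264 together made up 0.783% of the reads of the 7 rows in brain 3, against 12.8% to 25.4% in the other brain libraries. miR-1298-5p and miR-1911-5p together made up 99.1% there, against 57.5% to 82.8%.

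miR-1298-5p and miR-1911-5p were both raised in brain 3 by a similar factor. The share of miR-1911-5p among the reads of both was 4.46%, 4.36%, 3.29%, 3.097% and 3.53% in brain 1 to brain 5, and the intervals all overlapped. Outside brain 3 these shares rest on 7 to 17 reads of miR-1911-5p. Intervals as wide as 2.36% to 8.25%, in brain 1, cannot show that the ratio was constant. There are 5 libraries and the relation was not tested.

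With library sizes scaled by TMM or by DESeq2 size factors, brain 3 was still the highest library for miR-1298-5p and miR-1911-5p. It was also still the lowest for miR-448, miR-1264, miR-448-5p and both rows of miR-764, in part by a very small margin. For miR-448 brain 3 and brain 1 nearly tied, at 7.46 and 7.62 RPM with TMM and 6.96 and 7.03 RPM with DESeq2 size factors. For miR-448-5p they had 0.932 and 0.952 RPM, and 0.870 and 0.879 RPM. For miR-1264 brain 3 and brain 2 had 4.04 and 4.29 RPM with TMM, and 3.77 and 4.25 RPM with DESeq2 size factors. Against the median of the other 4, the gap narrowed for miR-448, to 1.44-fold and 1.60-fold lower, and for miR-1264, to 2.33-fold and 2.26-fold lower. It widened for miR-1298-5p, to 19.4 and 18.4 times, and for miR-1911-5p, to 14.6 and 14.4 times. The highest library of miR-448 became brain 5 in place of brain 4 under both.

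**Figure D3:**
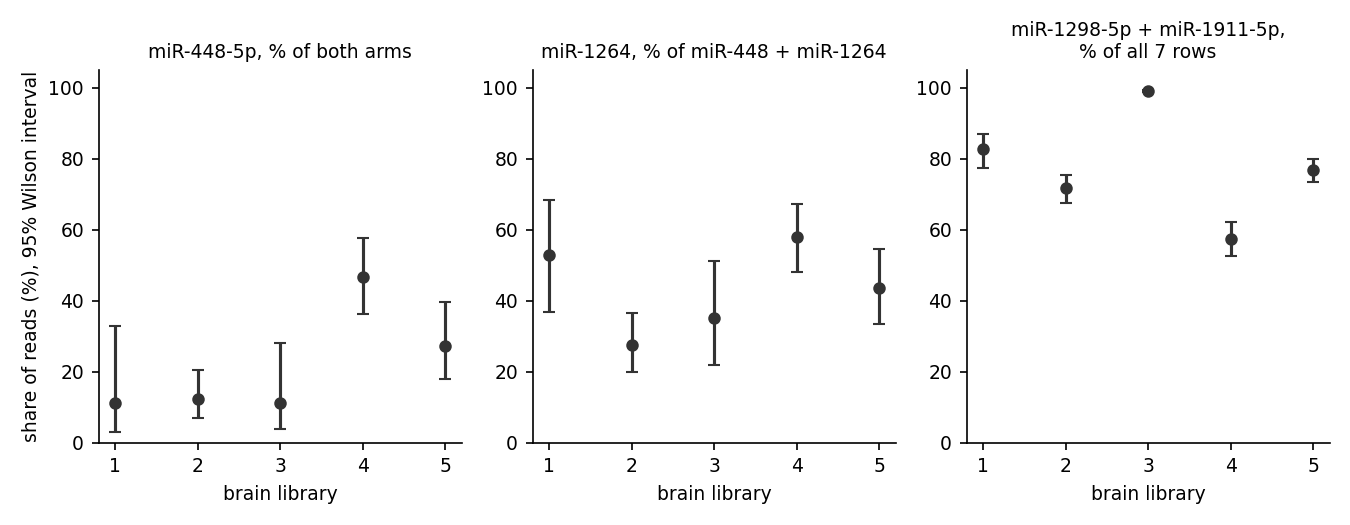
Shares of reads within the HTR2C locus in each brain library, with 95% Wilson intervals. The panels give miR-448-5p among both arms of miR-448, miR-1264 among miR-448 and miR-1264, and miR-1298-5p with miR-1911-5p among all 7 rows; brain 4 is the highest in the first and second panel and the lowest in the last, and brain 3 reaches 99.1% in the last.

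Some marker lists differed in brain 3 and others did not. The list for the choroid plexus and the ciliated ependyma, the epithelia that make and move the cerebrospinal fluid, had 10 rows for 6 of its 7 miRNAs, 3 of them TE in brain. Of the 9 rows with brain reads, 7 were highest in brain 3. These 7 include both arms of miR-34b and of miR-34c, so they are not separate observations. Of the 189 brain TE miRNAs 10.6% were highest there, but most rows of this list were not TE. The share of all miRNAs highest in brain 3 was not counted, so nothing is read from the 7 of 9. The summed level was 5482, 4088, 20531, 8257 and 3037 RPM in brain 1 to brain 5, against 0 to 108099 RPM in the other 71 libraries. Brain 3 thus stood over every other brain library by this sum.

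miR-204, abundant in choroid plexus epithelium, made up most of that sum, with 5411, 3927, 18388, 8209 and 2833 RPM in brain 1 to brain 5. The miRNAs of multiciliated cells were low or absent in the other brain libraries. miR-34c had 53.4, 133, 1939, 21.01 and 161 RPM, and miR-34b had 0, 4.04, 97.7, 0 and 7.82 RPM. miR-449a had 0, 3.73, 34.4, 0.678 and 3.48 RPM, hsa-miR-449b-5p was seen at 5.89 RPM in brain 3 and 0.434 RPM in brain 5 alone, and cfa-miR-449b was at 0 in all 5. Against this direction, miR-211, the close relative of miR-204, was lowest in brain 3, with 12.7, 3.11, 1.47, 7.45 and 10.4 RPM, and hsa-miR-204-3p was highest in brain 4, with 16.3 RPM.

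Of the 19 rows of neuronal markers, 11 were lowest and 2 highest in brain 3, shares close to those of all 189 brain TE miRNAs, of which 54.0% were lowest and 10.6% highest there. The activity-regulated miR-132 had 5926, 5698, 486, 5525 and 2220 RPM in brain 1 to brain 5, and its cluster partner miR-212 had 672, 511, 38.3, 857 and 398 RPM. miR-137 had 162, 103, 0.982, 238 and 34.8 RPM. The general neuronal miR-124 was not low in brain 3, with 2971, 2466, 4442, 4574 and 2067 RPM, nor was miR-9, with 38323, 38121, 40348, 35340 and 21762 RPM. Neither was miR-153, with 615, 313, 540, 352 and 210 RPM. The summed list was 108805, 90457, 71237, 107570 and 49975 RPM, so brain 5, not brain 3, was the lowest, against 235 to 5507 RPM outside brain.

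The other lists did not set brain 3 apart by their sums, except red cells. Oligodendrocyte rows summed to 1465 RPM in brain 3, within the range of the other brain libraries, 965 to 3047 RPM. The endothelial miR-126 rows summed to 6389 RPM, within 5758 to 15038 RPM, and myeloid rows to 111 RPM, within 80.8 to 364 RPM, with hsa-miR-223-5p at 0. Red cell rows summed to 42654 RPM, above the 11745 to 31302 RPM of the others. This sum was almost all miR-486, at 42204 RPM, the only 1 of the 4 rows that was highest in brain 3, while the erythroid miR-451 stood at 422 RPM there, within the 159 to 2161 RPM of the others. The part of any of these in the levels of miR-448, miR-1264, miR-1298-5p and miR-1911-5p was not tested.

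**Figure D4:**
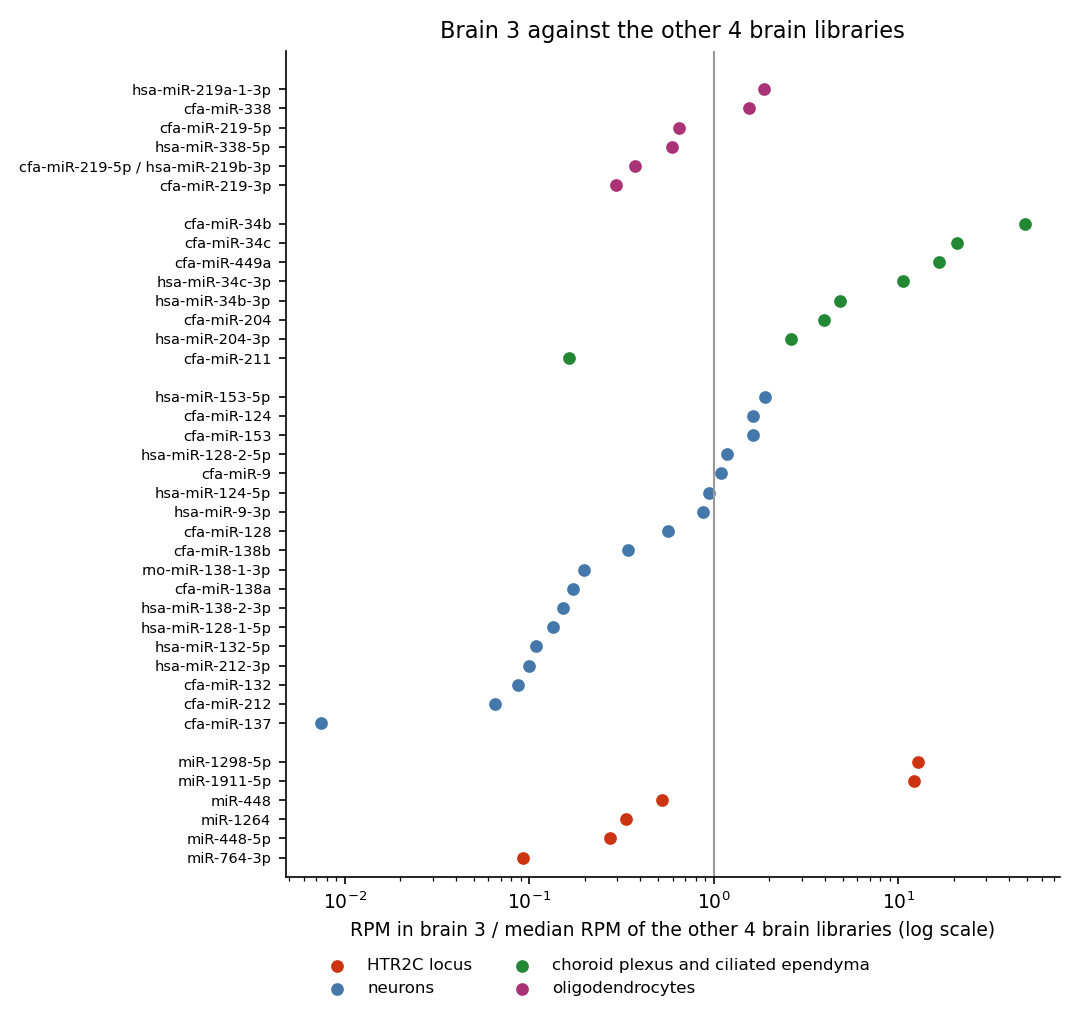
Level in brain 3 divided by the median of the other 4 brain libraries (horizontal axis, log scale) for the miRNAs of the HTR2C locus and for the marker miRNAs of neurons, of choroid plexus and ciliated ependyma, and of oligodendrocytes with a brain median above 3 RPM. Each point is 1 row, the vertical line marks equal levels, and rows at 0 in brain 3 are not drawn. miR-1298-5p and miR-1911-5p lie right of the line with miR-34b, miR-34c, miR-449a and miR-204. miR-448, miR-1264, miR-448-5p and miR-764-3p lie left of it with miR-132, miR-212 and miR-137. The lists are not split cleanly by the line. miR-211 lies left of it, the neuronal rows miR-124, miR-153, hsa-miR-153-5p, hsa-miR-128-2-5p and miR-9 lie right of it, and oligodendrocyte rows lie on both sides.

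The miRNAs whose pattern over the 76 libraries was most like that of miR-448 and miR-1264 were the same 5 for both, among 314 with a brain median above 10 RPM. By Pearson's r of log2(RPM + 1) with miR-448, they were cfa-miR-219-3p (0.981), hsa-miR-935 (0.976), cfa-miR-346 (0.964), rno-miR-325-3p (0.954) and hsa-miR-433-5p (0.932). With miR-1264 the same miRNAs had 0.962, 0.967, 0.959, 0.944 and 0.937. The r between miR-448 and miR-1264 was 0.979. The cut at 10 RPM left out rno-miR-764-3p and rno-miR-448-5p, which had r of 0.958 and 0.928 with miR-448 and 0.960 and 0.947 with miR-1264. By Spearman's rho with miR-448 they had 0.918 and 0.919, against 0.570 to 0.736 for the named 5. cfa-miR-764 and miR-1911-5p, also left out, had lower r of 0.821 and 0.805 with miR-448. Since 71 of the points lie at or near 0, these values mostly reflect presence in brain, and the libraries share depth and tissue, so they are a description only.

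All 5 had their lowest brain level in brain 3, as had 54.0% of all brain TE miRNAs, and they were picked for likeness to miRNAs that were lowest there. cfa-miR-346 came closest in level, with 17.8, 27.4, 6.38, 42.7 and 20.9 RPM in brain 1 to brain 5 and at most 1 read in any other library. hsa-miR-935 had 90.3, 107, 27.5, 392 and 57.3 RPM, highest in brain 4, as were 89 of the 189 brain TE miRNAs (47.1%), miR-448 and miR-1264 among them. cfa-miR-219-3p, an arm of the oligodendrocyte miRNA, differed in that it was highest in brain 5, with 186, 276, 145, 712 and 1435 RPM.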

How the data were processed

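The authors prepared small RNA libraries, aligned the reads without mismatches to CanFam3.1 and dropped reads with many genomic locations. They then counted reads over dog, rat and human miRNA loci. They deposited a count per miRNA and sample, the total count on miRNAs and the RPM. The deposited RPM (recomputed within a relative difference of 2.89e-09) is the count scaled to that total, and the deposited highest RPM of each miRNA was not used. Unlisted miRNAs were set to 0. Of 77 labelled samples, 1 colon sample had no values, and 1 sample name, given in the deposited table as a sciatic nerve pool, matched no label and was not used. The deepest library held 7896424 reads and the median was 1364823. The counting could not separate near-identical miRNAs.

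TE was tested in each tissue by an exact rank-sum test (two-sided, midranks) with Benjamini-Hochberg adjustment over the 650 miRNAs and a fold above 5, after the study's criterion. It was tested on simulated data. Alternatives used edgeR 4.0.16 (quasi-likelihood) and DESeq2 1.42.0 in R 4.3.3, other scalings, filters, thinning and leaving out each brain library (Python 3.11.15, scipy 1.17.1, pandas 2.3.3, numpy 2.4.6). Shares have 95% Wilson intervals, pooled ratios exact conditional binomial ones. The miRNAs named are both members, the listed miRNAs of the HTR2C introns, the 5 most like each member, and the choroid plexus and neuronal markers. The choice of single neuronal markers and of miR-202 was made after their values were seen. The members, lists and marker lists were chosen with earlier results of these data known. No miRNA sequence was used here.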

Additional observations from a re-analysis of the deposited data

Results flagged for a closer look

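A sample far from the other 4 of its tissue, by Dixon's test at the 95% level, was found for 6 of 12 sets of values, each 1 row of the HTR2C locus in 1 tissue with a library above 3 reads. Chance gives about 1 in 20 for values that follow a normal distribution, but not where most libraries are at 0, as outside brain. Whether the brain values follow a normal distribution was not tested. The 14 sets with reads but at most 3 in any library were not tested. For miR-1298-5p these were brain 3 at 2225 RPM, duodenum 3 at 12.3 RPM (17 reads), pancreas 2 at 5.04 RPM (8 reads) and skeletal muscle 1 at 3.51 RPM (5 reads). For miR-1911-5p it was brain 3 at 75.6 RPM, and for miR-448-5p it was brain 4 at 25.1 RPM. No brain library was marked in this way for miR-448 or miR-1264.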

How the results depend on the processing

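No paired analysis was possible because the labels carry no dog number. Of the values and counts that answer a comparison, 62 under an alternative moved by less than 1 SD of the brain libraries (for counts, by less than 1.5 times) and 8 by more. With TMM scaling the brain level of miR-448 was 9.95 RPM (mean) and 10.2 RPM (median), and with DESeq2 size factors 9.62 and 11.2 RPM. miR-1264, whose SD is wider, fell as far, to 8.25 (mean) and 8.57 RPM (median) with TMM and to 8.10 and 7.91 RPM with DESeq2 size factors. These scalings shifted brain against the other tissues as a whole by -1.11 and -1.06 on the log2 scale, and a count of 0 stays 0 under any of them. miR-1911-5p no longer lay above every other library under either. With only miRNAs of a tissue median above 100 RPM, 77 were TE in brain, 1 of them in the HTR2C list, miR-1298-5p. The other listed rows, with brain medians of 1.27 to 7.39 RPM, were left out by that cut and could not be called. How many miRNAs of the atlas passed the cut is not given here. DESeq2's Wald test called 125 miRNAs in brain, again 1 of the list, miR-1298-5p (adjusted p 2.79e-11). By that test miR-1911-5p, miR-448-5p and miR-764-3p had adjusted p 0.116, 0.533 and 0.512. edgeR's quasi-likelihood test called 4 of the 4 listed rows it kept, at a fold above 5 and with adjusted p from 2.52e-25 to 1.88e-06. At that fold and an adjusted p under 0.05 it called 150 of the 480 miRNAs it kept. Without the fold, 217 of 480 (45.2%) were higher in brain. The cause of the difference between edgeR and DESeq2 was not tested. The 5 listed rows kept the TE call in every other scaling and without each brain library in turn, where the mean of miR-1298-5p was as low as 176 RPM without brain 3. The 5 miRNAs most like miR-448 shared 2 with the reported ones by Spearman, 3 with a pseudocount of 10 RPM and 3 with a brain median above 1 RPM; for miR-1264 they shared 2, 4 and 2. Leaving out testis 3, an alternative chosen after seeing the data, gave 190 TE miRNAs in brain and all 5 of the list. Depth limits miR-764 and miR-448-5p most, with as few as 0 to 3 reads in single brain libraries.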
